A study of Sus scrofa with 16 samples.

Results

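RCAN1, which codes for a protein inhibitor of the phosphatase calcineurin, was examined in pig left ventricle together with the genes for calcineurin and its target transcription factors. Members were all probe sets (groups of short probes that read the same transcript) whose platform gene symbol starts with RCAN, PPP3C, PPP3R or NFATC. These were 12 of 23935 probe sets tested, for 6 of 6765 gene symbols. RCAN1 had 2 probe sets, RCAN3 had 2, PPP3CA had 3, PPP3CB had 3, PPP3CC had 1 and NFATC1 had 1. No probe set carried a symbol that starts with PPP3R, the prefix of the regulatory subunits, so that subunit was not analysed here. RCAN1 entered because it was lower in exercised animals in an earlier look at these data. Its difference between exercised and sedentary animals is therefore described without a test, while the other 5 genes were chosen by symbol alone.

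Total RNA came from frozen left ventricular myocardium of Yorkshire x Landrace swine that were 2 to 3 months old. One group of 8 animals was exercise-trained and one of 8 was sedentary, with RNA isolated 4 to 5 weeks after the protocol began. Each group held 4 females and 4 males, and every male was neutered, so the sex comparison is of females with castrated males. The kind and dose of exercise are not given in the sources used here. Each animal had 1 one-channel Affymetrix array, and values are log2 signals, on which a difference of 1 is a doubling. The tissue was whole myocardium, so fewer cells of a type and less RNA per cell cannot be told apart.

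Calcineurin is a phosphatase switched on by calcium and calmodulin. It has a catalytic subunit, coded by PPP3CA, PPP3CB or PPP3CC, and a small calcium-binding regulatory subunit. It removes phosphates from the NFAT transcription factors, which then enter the nucleus. RCAN proteins bind calcineurin and can hold it back, and a short RCAN1 transcript is itself switched on by NFAT, which is why RCAN1 is widely read as a marker of calcineurin activity. In the heart, forced calcineurin activity is known to drive growth with features of disease, while growth with exercise is usually tied to other signals. Which RCAN1 transcript each probe set reads was not analysed here.

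Each of the 16 arrays had a correlation of 0.988 to 0.994 with the average of the remaining ones. Ventricular muscle genes were among the brightest probe sets, with MYL2 at 14.61 and MYH7 at 14.51 log2 on average, and the skeletal muscle genes MYH2 and TNNT3 were at 3.93 and 4.95. The bacterial poly-A control transcripts parted the arrays into 11 with bright control signal (8.30 ± 0.39 SD) and 5 with dim signal (6.37 ± 0.24), a split that the labels do not name. The bright arrays held 6 exercised and 5 sedentary animals, and the dim arrays held 2 and 3, with 0 exercised females. Over all probe sets 13.4% passed an adjusted p of 0.05 for training (limma, Benjamini-Hochberg), 6.88% lower and 6.48% higher in exercised animals.

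RCAN1 was lower in exercised than in sedentary hearts on its brightest probe set, Ssc.3189.1.A1_at. In exercised animals it ran from 9.51 to 10.25 log2 with a median of 9.82, and in sedentary animals from 9.83 to 10.73 with a median of 10.29. The groups overlapped: 4 exercised animals lay below the lowest sedentary animal, and 4 sedentary animals lay above the highest exercised one. All 8 exercised animals lay below the sedentary mean. The means were 9.82 ± 0.28 in exercised and 10.29 ± 0.36 in sedentary animals (SD, n = 8 each), a difference of -0.47 log2 (SE 0.147), or 1.38-fold. This is the difference for which RCAN1 was chosen.

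The second RCAN1 probe set, Ssc.9607.1.A1_at, moved with the first across animals but was lower by less between the groups. It ran from 7.07 to 8.42 with a median of 7.64 in exercised animals, and from 7.20 to 8.81 with a median of 7.96 in sedentary animals. The groups overlapped over most of their range, and 6 of 8 exercised animals lay below the sedentary mean. Means were 7.66 ± 0.47 and 7.99 ± 0.53 (n = 8 each), a difference of -0.33 log2 (SE 0.215). The correlation between both probe sets was 0.82 over the 16 animals, and 0.82 again on residuals from the 4 means of training and sex, so they followed each other within groups too. Animals ran over 1.23 log2 on the brightest and 1.74 on the second probe set.

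**Figure D1:**
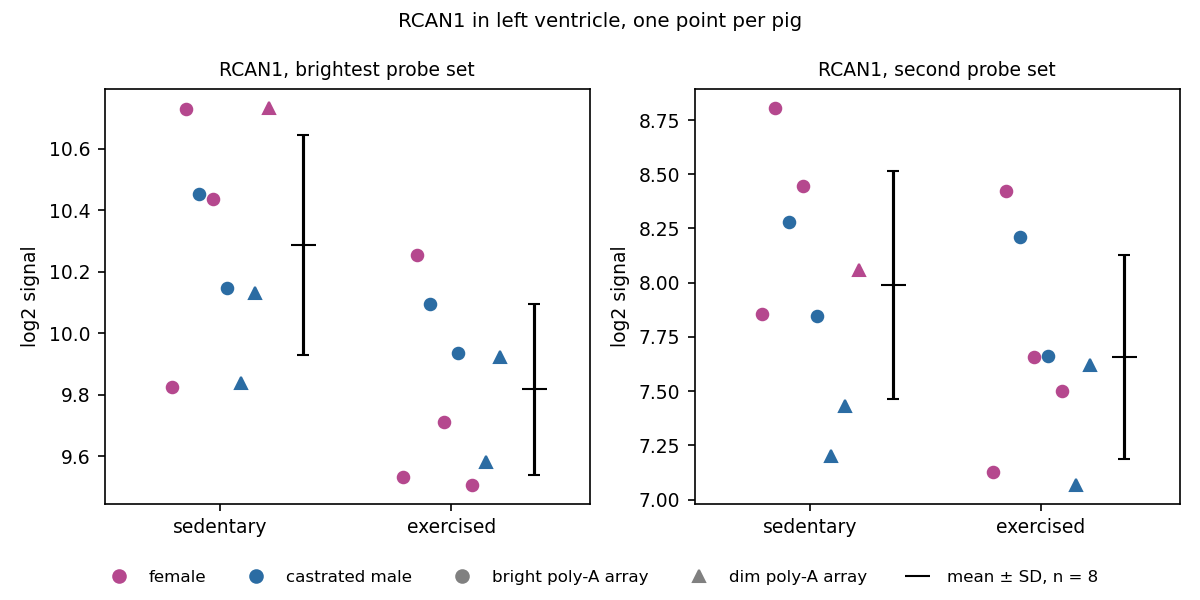
RCAN1 log2 signal in each of 16 pigs on its brightest (left) and second (right) probe set, with sedentary and exercised animals side by side. Colour marks sex, triangles mark arrays with dim poly-A control signal, and bars show the mean ± SD. On the left all 8 exercised animals lie below the sedentary mean of 10.29, with overlap between groups; on the right 6 of 8 lie below the sedentary mean of 7.99.

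The RCAN1 difference was larger in females than in castrated males on both probe sets, but the test of that difference did not pass. On the brightest probe set the 4 exercised females were at 9.53, 10.25, 9.71 and 9.51, and the 4 sedentary females at 9.83, 10.73, 10.44 and 10.73. The 4 exercised males were at 10.09, 9.94, 9.58 and 9.92, and the 4 sedentary males at 10.45, 10.15, 9.84 and 10.13. Females therefore held both the lowest and the highest values of the whole series. The difference was -0.68 (SE 0.208) in females and -0.26 (SE 0.208) in males, and on the second probe set -0.61 (SE 0.304) and -0.05 (SE 0.304). The interaction was -0.42 with a 95% interval of -1.05 to 0.20 on the brightest probe set (limma, adjusted p = 1.0), and -0.57 with an interval of -1.48 to 0.35 on the second (adjusted p = 1.0). Over all probe sets 0% passed this interaction, and 621 had an unadjusted p under 0.05. The male difference moved when 1 animal was left out: on the brightest probe set it was -0.16 without sedentary 3 and -0.16 without exercised 7, and on the second it turned to 0.15 without sedentary 3, 0.14 without exercised 7 and 0.0032 without sedentary 5.

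On the arrays with bright poly-A signal RCAN1 was lower in exercised animals on both probe sets, by fitted differences of -0.43 and -0.41. The dim arrays held no exercised female, so their plain differences of -0.48 (means of 9.75 and 10.23) and -0.22 set 2 exercised males against 2 sedentary males and 1 sedentary female, sedentary 8. That female was at 10.73 and 8.06. Without it, males on dim arrays differed by -0.23 on the brightest probe set (9.75 and 9.98, n = 2 each) and by 0.03 on the second (7.35 and 7.32), where the direction turned. The second probe set was itself lower on the dim arrays, at 7.48 against 7.98 on the bright ones, while the brightest was at 10.04 and 10.06. With the array set as a block the differences were -0.48 and -0.40.

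RCAN3 codes for another inhibitor of the same family. Its probe sets were dim, below the 40th percentile of level (5.57 log2), and neither passed. The brighter, Ssc.28328.1.S1_at, ran from 4.70 to 5.16 with a median of 4.81 in exercised animals and from 4.64 to 5.06 with a median of 4.82 in sedentary animals. The groups overlapped almost fully. The difference was 0.02 log2 (95% interval -0.12 to 0.17, n = 8, adjusted p = 0.872, limma). The other, Ssc.28328.2.A1_at, was at 4.09 ± 0.19 in exercised and 3.99 ± 0.13 in sedentary animals, a difference of 0.10 (interval -0.08 to 0.29, adjusted p = 0.513). RCAN3 did not follow RCAN1 across animals, with r = -0.06 and r = -0.13 against the brightest RCAN1 probe set over 16 animals.

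Of the 10 probe sets of the 5 genes other than RCAN1, 0 passed for training at an adjusted p of 0.05 (limma), beside 13.4% of all probe sets, and 1 had an unadjusted p under 0.05, as did 6474 of all 23935. Within females and within males 0 of 10 passed and 0 had an unadjusted p under 0.05, beside 3.72% and 3.77% of all probe sets that passed. With entry limited to levels over the 60th percentile and p-values adjusted among those alone, 77 of 9574 passed for training. In females 1 passed, and in males 0. In that run the brightest PPP3CB probe set had an adjusted p of 0.315 (limma), against 0.133 over all probe sets, with the same difference. The share of bright probe sets that passed under the main adjustment is not given here. The 7 PPP3C probe sets lay at the 73.8th to 93.5th percentile of level. Few probe sets of like level passed in that run, so 0 of these 7 is not read as a result about them. The RCAN3 and NFATC1 probe sets were dimmer. The sizes of these 10 training differences ran from 0.002 to 0.16 log2, and the median size over all probe sets was 0.12.

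PPP3CA, the alpha catalytic subunit, did not pass for training on any of its 3 probe sets. Its brightest probe set, Ssc.6764.2.S1_at, ran from 8.24 to 8.96 (median 8.68) in exercised and from 8.18 to 9.17 (median 8.60) in sedentary animals. The exercised values lay inside the sedentary range. The means were 8.64 ± 0.24 and 8.59 ± 0.33 (n = 8 each), a difference of 0.05 log2 with an interval of -0.19 to 0.30 (adjusted p = 0.816, limma). The other probe sets, Ssc.15878.1.S1_at and Ssc.6764.1.A1_at, differed by -0.01 each, with intervals of -0.21 to 0.19 and -0.25 to 0.23. Sedentary 4 was highest on the brightest probe set. Against the brightest RCAN1 probe set, the 3 PPP3CA probe sets had r of -0.05, 0.09 and 0.11 over 16 animals. Against the second RCAN1 probe set r was 0.28, 0.04 and 0.37.

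PPP3CB, the beta catalytic subunit, gave values on 3 probe sets that did not move alike. The brightest, Ssc.22111.1.S1_at, ran from 9.76 to 10.23 (median 9.90) in exercised and from 9.62 to 9.98 (median 9.77) in sedentary animals. In 7 of 8 exercised animals it lay above the sedentary mean, with exercised 5 the highest of all. The means were 9.93 ± 0.15 and 9.77 ± 0.11 (n = 8 each), a difference of 0.16 log2 with an interval of 0.02 to 0.31 (adjusted p = 0.133, limma), which did not pass. The fitted difference was 0.25 on the arrays with bright poly-A signal, and males on dim arrays differed by 0.02 (n = 2 each). Ssc.19700.1.S1_at was at 7.90 ± 0.11 and 7.81 ± 0.09, a difference of 0.09 (adjusted p = 0.394). Ssc.25651.1.S1_at went the other way, at 7.73 ± 0.20 and 7.82 ± 0.23, a difference of -0.10 (adjusted p = 0.548). The first and last of these correlated at -0.48 over 16 animals. In the same order, the 3 had r of -0.48, -0.07 and 0.33 with the brightest RCAN1 probe set. On residuals these were -0.21, 0.25 and 0.15. With the second RCAN1 probe set r was -0.50, 0.20 and 0.62, and -0.30, 0.45 and 0.49 on residuals. The mean of the 3 probe sets differed by 0.05 (adjusted p = 0.607).

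PPP3CC, the gamma catalytic subunit, had 1 probe set, Ssc.30592.1.S1_at, which ran from 9.03 to 9.45 (median 9.28) in exercised and from 9.07 to 9.43 (median 9.23) in sedentary animals. The ranges nearly coincided. The means were 9.27 ± 0.13 and 9.24 ± 0.12 (n = 8 each), a difference of 0.03 with an interval of -0.11 to 0.18 (adjusted p = 0.809, limma). It varied little from pig to pig: its animals spanned 0.43 log2 in all, against 1.23 for the brightest RCAN1 probe set.

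NFATC1, the member of the NFAT family on the array table, codes for a transcription factor that calcineurin sends to the nucleus. Its probe set, Ssc.16011.1.S1_at, was dim. It ran from 4.99 to 5.49 (median 5.21) in exercised and from 4.96 to 5.39 (median 5.21) in sedentary animals. The difference was -0.002 log2 with an interval of -0.18 to 0.17 (n = 8, adjusted p = 0.99, limma). The fitted difference was 0.12 on the arrays with bright poly-A signal, and males on dim arrays differed by -0.17 (n = 2 each).

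**Figure D2:**
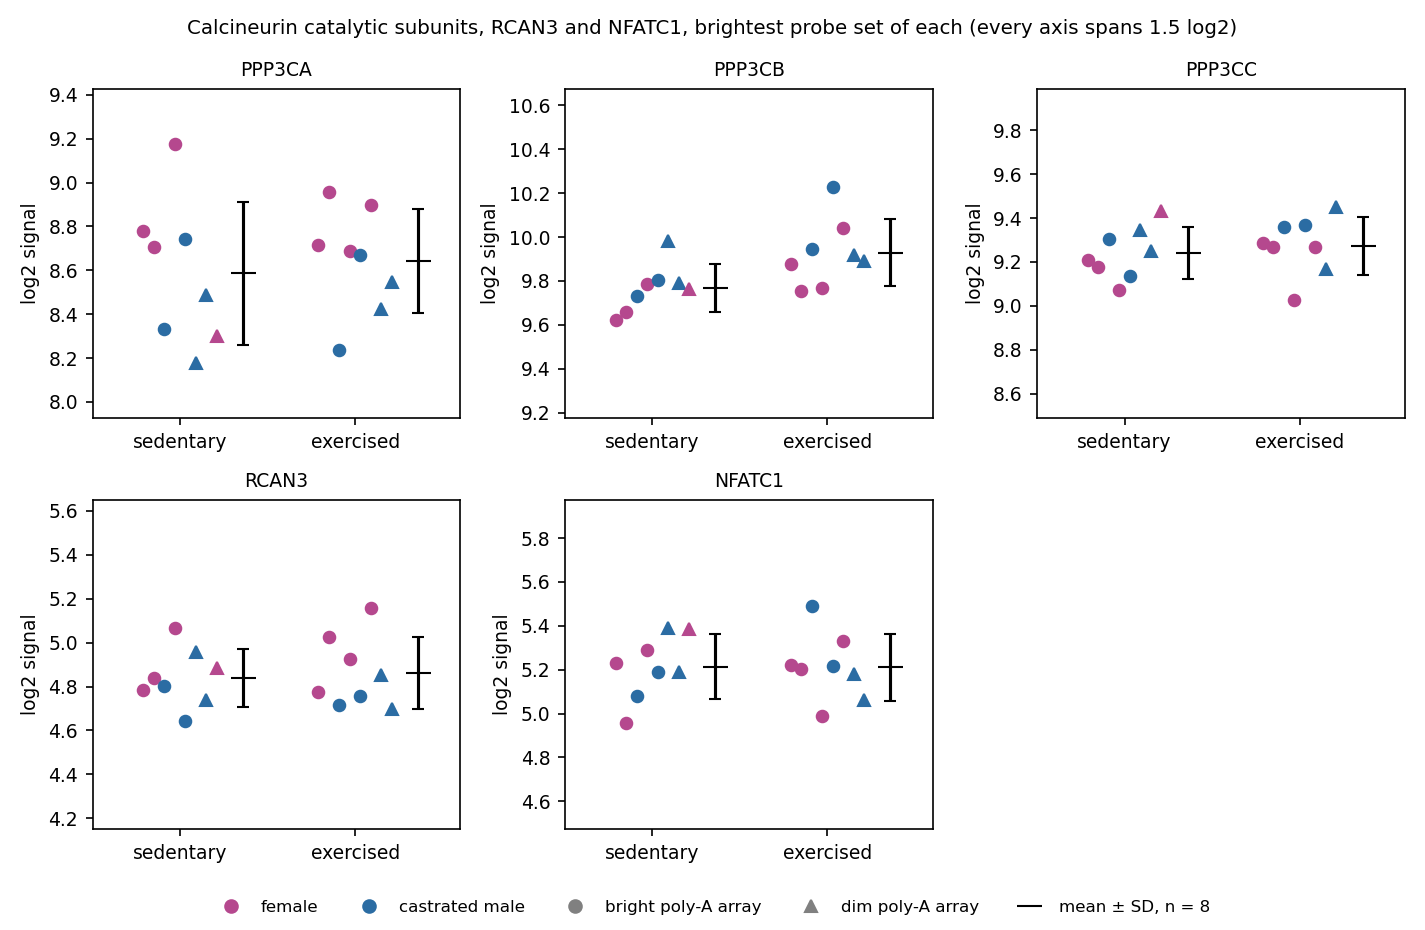
Log2 signal in each of 16 pigs for PPP3CA, PPP3CB, PPP3CC, RCAN3 and NFATC1 on the brightest probe set of each, with all axes spanning the same number of log2 units. Colour marks sex, triangles mark arrays with dim poly-A signal, and bars show mean ± SD of 8 animals. The groups overlap in every panel; the PPP3CB means, 9.93 and 9.77, lie farthest apart.

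Animals of a group spread more widely in RCAN1 than in PPP3CB and PPP3CC, and less clearly so beside PPP3CA. The residual SD of RCAN1, the spread left after the means of training and sex, was 0.32 log2 on the brightest and 0.48 on the second probe set, at the 85.6th and 96.1st percentile of all probe sets tested. The brightest probe sets of PPP3CB and PPP3CC had residual SDs of 0.12 each, at the 17.1st and 17.6th percentile. That of PPP3CA had 0.24, at the 71.3rd percentile. Among sedentary animals the SDs of RCAN1 and PPP3CA were closer, at 0.36 and 0.33 on the brightest probe sets. This is a description of 2 RCAN1 probe sets, with no test.

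**Figure D3:**
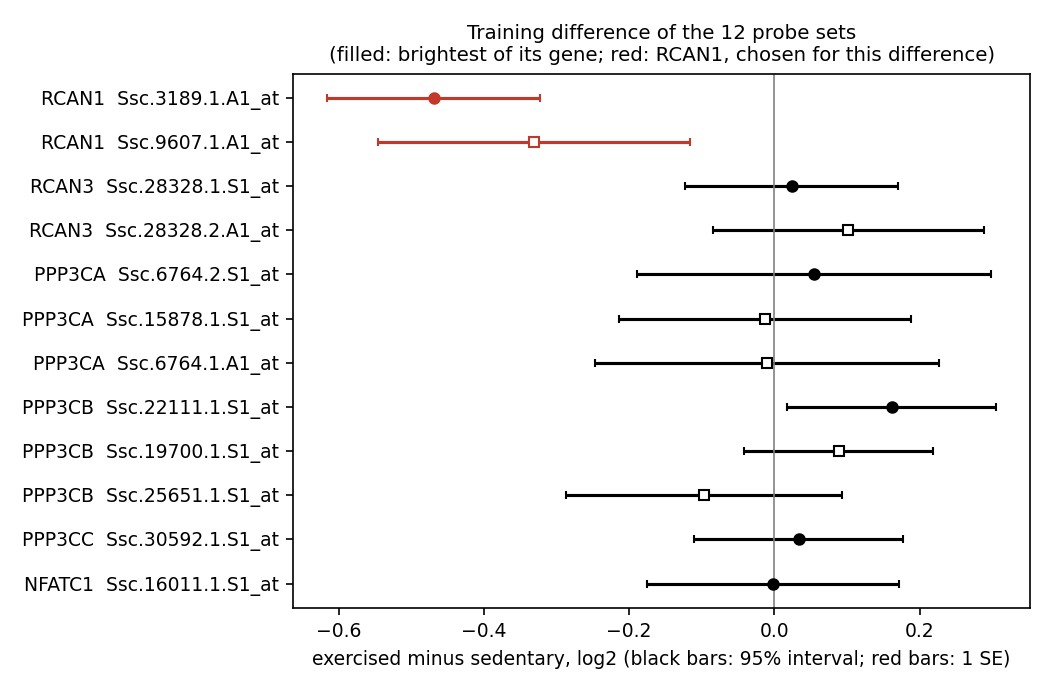
Exercised minus sedentary difference (log2, averaged over the sexes) of the 12 probe sets. Black bars are 95% intervals of limma; red marks RCAN1, chosen for this difference, with bars of 1 SE. RCAN1 lies at -0.47 and -0.33, and the other 10 probe sets lie between -0.10 and 0.16.

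The difference between females and castrated males was not used to choose any member, and 0 of 12 probe sets passed it, beside 0.0919% of all probe sets. Of the 12, 4 had an unadjusted p under 0.05, as did 2217 of all 23935. PPP3CA was higher in females on its brightest probe set, at 8.78 ± 0.25 against 8.45 ± 0.20 (n = 8 each), by 0.32 log2 (SE 0.115, interval 0.08 to 0.57, adjusted p = 0.537, limma). It was 0.35 on the arrays with bright poly-A signal alone and 0.24 with the array set as a block. Its probe set Ssc.6764.1.A1_at gave 0.29 (adjusted p = 0.537) and Ssc.15878.1.S1_at gave 0.08 (adjusted p = 0.762). The PPP3CB probe set Ssc.25651.1.S1_at was at 0.25 and the brighter of RCAN3 at 0.16, both with an adjusted p of 0.537. The PPP3CB value moved with the arrays, to 0.14 with the array set as a block. RCAN1 was at 10.09 ± 0.51 in females and 10.01 ± 0.26 in males on its brightest probe set, a difference of 0.08 (interval -0.23 to 0.39, adjusted p = 0.864). That turned to -0.12 on the arrays with bright poly-A signal. The second RCAN1 probe set was 0.32 higher in females (adjusted p = 0.602), and 0.02 on those arrays.

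The genes whose level followed RCAN1 most closely were sought among 5450 other named genes above the 40th percentile of level, by Pearson correlation over 16 animals. Animals share the training difference, so levels that differ between the groups correlate for that reason too, and the values are a description. HES1, a transcriptional repressor known as a target of Notch signalling, was most like RCAN1 (r = 0.86). It was also first on residuals from the means of training and sex (r = 0.78). HES1 ran from 6.32 to 6.83 (median 6.57) in exercised and from 6.67 to 7.65 (median 7.14) in sedentary animals. It correlated at 0.72 with the second RCAN1 probe set. IL17B, a cytokine gene, followed at 0.76 (0.72 on residuals), but another of its 3 probe sets was at -0.08. Next by level was PPP2CA, the catalytic subunit of protein phosphatase 2A (0.73, and 0.53 on its other probe set). HNRNPR, an RNA-binding protein, was at 0.73 (0.20 on its other probe set). CACNG3, named for the gamma family of calcium channel subunits, was at 0.72, on a probe set at the 41.7th percentile of level. On residuals the others were HGSNAT, a lysosomal enzyme (0.74), ZNF566, a zinc-finger gene (0.73), and MAD2L2, a DNA repair and spindle protein (0.72). The levels of these 3 correlated with RCAN1 at 0.20, 0.51 and 0.04, lower than their residuals, and the other probe sets of HGSNAT and ZNF566 were at -0.10 and -0.30. Over all 7363 probe sets compared, the 99th percentile of r was 0.58 for levels and 0.52 for residuals.

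**Figure D4:**
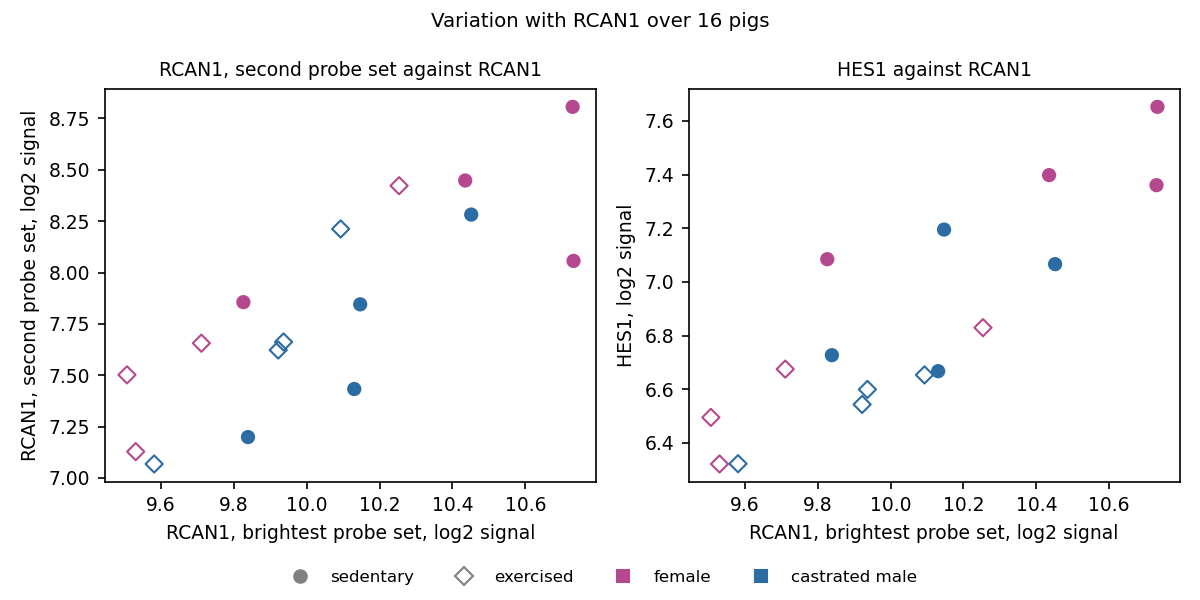
Second RCAN1 probe set (left) and HES1 (right) against the brightest RCAN1 probe set, log2 signal in each of 16 pigs. Filled circles are sedentary and open diamonds exercised animals, and colour marks sex. Both rise with RCAN1, with r of 0.82 and 0.86, and exercised animals lie toward the lower left.

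Other genes of the pathway were followed on each gene's brightest probe set, where 10.0% of 6765 genes passed for training, 346 higher and 332 lower, with a median difference of 0.01. These lists, and the marker lists further on, were drawn up with earlier results of these data known. Their counts, medians and p-values are therefore descriptions. Among 6 measured genes that dock, anchor or modulate calcineurin 0 rose, 1 fell and 5 did not pass, with a median of 0.10. An unadjusted p under 0.05 (limma) was found for 4 of them, MYOZ1 and LMCD1 lower and AKAP1 and FKBP1A higher in exercised animals. MYOZ1, a calsarcin that tethers calcineurin at the Z-disc and is best known from fast skeletal muscle, fell by 0.59 to 4.71 ± 0.19 from 5.30 ± 0.17 (n = 8, adjusted p = 0.000612, limma), on a dim probe set. LMCD1, a LIM-domain protein of muscle, was at 8.17 ± 0.27 and 8.69 ± 0.62, a difference of -0.52 (adjusted p = 0.0737). AKAP1, an anchoring protein of the mitochondrial surface, was at 6.72 ± 0.58 and 6.14 ± 0.53 (adjusted p = 0.152), and FKBP1A, the partner through which the drug tacrolimus blocks calcineurin, at 11.12 ± 0.31 and 10.84 ± 0.09 (adjusted p = 0.135).

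Calmodulin, which activates calcineurin, and the calmodulin-dependent kinases gave 0 genes that passed among 6 (limma), and 1 with an unadjusted p under 0.05, with a median of -0.07. The smallest p was for CAMK1, a kinase, at -0.17 (adjusted p = 0.121). CAMK2D, the main heart form of calmodulin kinase II, was at -0.15 (adjusted p = 0.262). Of 6 genes of calcium entry and release 1 fell and 0 rose, with a median of -0.02. ITPR1, a calcium release channel of internal stores, fell by 0.22 on a dim probe set (adjusted p = 0.045). ITPR3, of the same channel family, was at -0.09 (adjusted p = 0.407), and ORAI3, a store-operated entry channel, at -0.06 (adjusted p = 0.622).

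Among 10 genes for kinases or other proteins that oppose calcineurin on NFAT, or for export from the nucleus, 1 rose and 0 fell, with a median of 0.02. MAPK9, the stress kinase JNK2, rose by 0.28 to 6.16 ± 0.19 from 5.87 ± 0.11 (n = 8, adjusted p = 0.0351, limma). CSNK1D, a casein kinase, was at -0.29 (adjusted p = 0.0599). XPO1, the export receptor, was at -0.22 (adjusted p = 0.422) and MAPK14, the stress kinase p38 alpha, at -0.12 (adjusted p = 0.358). Of 9 partner transcription factors 0 passed (limma) and 1 had an unadjusted p under 0.05, with a median of -0.04. FOSL2 was at -0.48 (adjusted p = 0.0786), JUN at -0.36 (adjusted p = 0.308) and FOS at -0.95 (adjusted p = 0.352), all parts of the AP-1 factor that joins NFAT on DNA. FOS was at 7.32 ± 1.45 in exercised and 8.26 ± 1.26 in sedentary animals, so the animals of a group spread more widely than the groups differed. GATA6, a cardiac factor, was at -0.24 (adjusted p = 0.397).

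Of 14 measured genes known as NFAT targets in heart, vessels or lymphocytes 1 rose, 1 fell and 12 did not pass, with a median of 0.03. TNF, an inflammatory cytokine, rose by 0.55 to 6.03 ± 0.17 from 5.48 ± 0.17 (n = 8, adjusted p = 0.000356, limma). EDN1, the vasoconstrictor endothelin 1, fell by 0.58 to 5.49 ± 0.17 from 6.07 ± 0.43 (adjusted p = 0.018). Both lay in the lower part of the array's range, at the 42.7th and 43.2nd percentile of level. Of 6 stress genes of the hypertrophic heart 5 were lower in exercised animals, with a median of -0.32, and 1, NPPA, passed, with a fall of 0.78 (adjusted p = 0.0457). XIRP1 was at -0.89 (adjusted p = 0.0575), ANKRD1 at -0.28 (adjusted p = 0.187), NPPB at -0.36 (adjusted p = 0.683) and FHL1 at -0.15 (adjusted p = 0.429). The mean level of this list correlated with RCAN1 at 0.57 over the 16 animals, which share the training difference. Like the list of NFAT targets, it was drawn up with earlier results of these data known, so its values are a description.

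**Figure D5:**
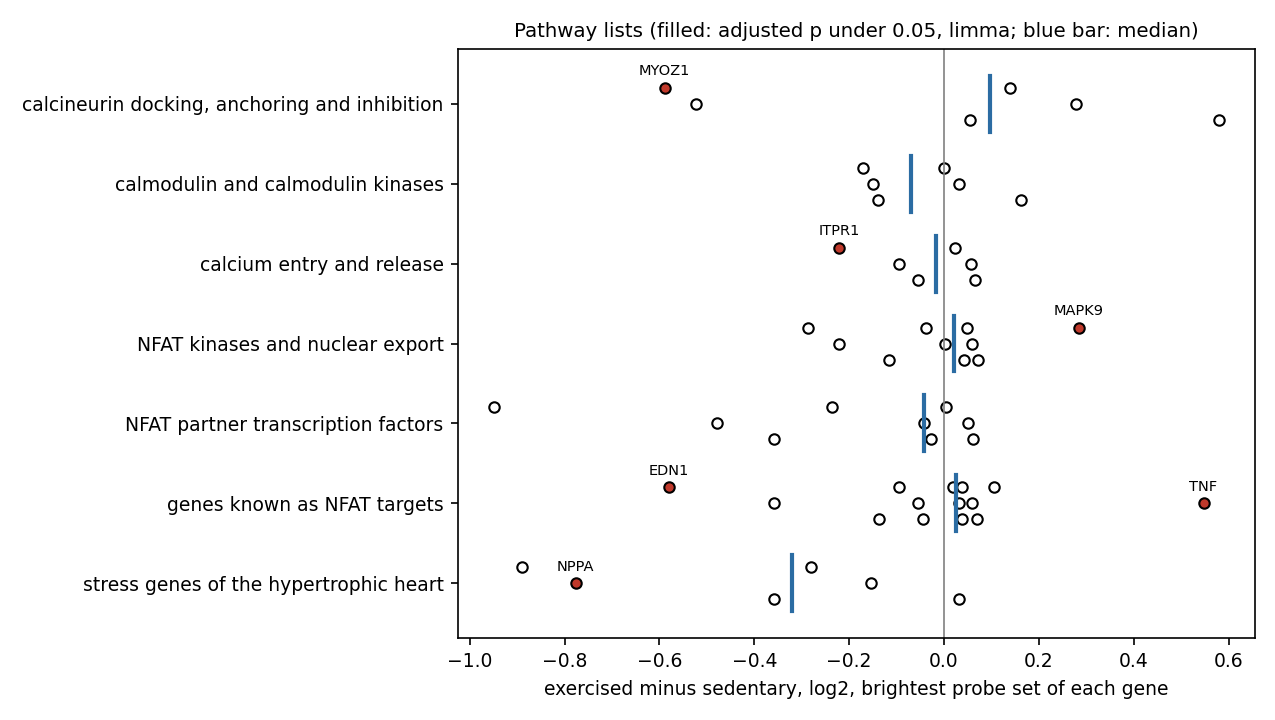
Exercised minus sedentary difference (log2) of each measured gene of 7 pathway lists on its brightest probe set. Filled points passed an adjusted p of 0.05 (limma) and are named, and blue bars are list medians. Medians lie between -0.07 and 0.10 except for stress genes of the hypertrophic heart at -0.32. The lists were drawn up with earlier results of these data known.

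Marker genes of the cell types in the tissue were set beside RCAN1. Cardiomyocyte markers had 0 of 9 passing (limma; 1 with an unadjusted p under 0.05) and a median difference of 0.01, with mean levels of 13.81 to 14.03 in exercised and 13.76 to 13.89 in sedentary animals. Several lay near the highest value of the series, 14.86, with MYL2, MYH7 and TNNI3 at 14.61, 14.51 and 14.50. A change there may show little. Endothelial, fibroblast, smooth muscle and macrophage markers had 0 of 6, 0 of 5, 0 of 5 and 0 of 4 passing (0, 1, 0 and 2 with an unadjusted p under 0.05), with medians of -0.02, -0.14, 0.04 and -0.10. Of the lymphocyte markers 2 of 7 rose, CD3G by 0.56 and CD79B by 0.26, both on dim probe sets (37.2nd and 15.5th percentile of level). The brighter CD3D, CD3E, CD2 and CD8A did not pass. On this list 4 had an unadjusted p under 0.05, with a list median of 0.19 and r = -0.39 with RCAN1. Mean levels of the list were 5.46 to 6.03 in exercised and 4.95 to 5.75 in sedentary animals. CD4 of the same list was lower in exercised animals, at 4.32 ± 0.28 against 4.69 ± 0.23 (n = 8 each, adjusted p = 0.0618, limma). Immediate early genes, which respond within minutes to a stimulus or to handling, had 6 of 7 lower in exercised animals and a median of -0.89, and 1, NR4A3, passed, with a fall of 2.01. Their mean level ran from 7.13 to 9.37 in exercised and from 7.67 to 9.67 in sedentary animals, and correlated with RCAN1 at 0.20. The part of these markers in the RCAN1 difference was not tested. Markers of red cells, fat, atrium and skeletal muscle had 0 of 2, 0 of 3, 0 of 2 and 0 of 2 passing, and 0 of these had an unadjusted p under 0.05. These counts take each gene's brightest probe set. Among genes of the pathway and marker lists that did not pass on it, other probe sets passed for LMCD1 (1 of 2 probe sets), CALM3 (2 of 6), MAPK8 (1 of 2), FOSL1 (1 of 3), SLC2A4 (2 of 3), RYR2 (1 of 3), VWF (1 of 3) and CD4 (1 of 2), named here after their values were seen.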

How the data were processed

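Left ventricular RNA from 16 pigs was hybridised to Affymetrix arrays as biotinylated cRNA, per the labels' protocols. The authors deposited 1 log2 signal for each probe set and animal. The software, summarisation and normalization are not given in the sources used here. The 16 columns ran from 2.87 to 14.86 with a shared median of 6.24, so no further normalization was applied. Of 24123 probe sets, 188 controls were left out. Symbols came from the platform annotation. All 12 members matched the RefSeq table of Sscrofa11.1 by Entrez identifier, with 12 symbols alike. Sequences were not used here.

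With limma 3.58.1 (R 4.3.3; lmFit, then eBayes), a model gave every group of one sex its own mean, 4 in all (12 residual and 3.50 prior degrees of freedom). P-values are two-sided and were adjusted by Benjamini and Hochberg's method across the 23935 probe sets. The fit was tested on simulated data. Precision is limited by the number of arrays.

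Members and lists were chosen with earlier results of these data known. The main value of a gene is its brightest probe set. Named genes of a pathway list were those that passed and up to 4 with the smallest p, with NPPB of the stress list added. Likeness to RCAN1 named 5 genes each by level and by residual. Alternatives were quantile normalization, a filter at the 60th percentile of level, a trended robust eBayes, the replicate number or the poly-A array set as a block, the bright arrays alone, no sex term, the mean of a gene's probe sets, and leaving out each animal. Dim arrays alone, and the males on them, were added after seeing the data. Plots used Python 3.11.15 and matplotlib 3.10.9.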

Additional observations from a re-analysis of the deposited data

How the results depend on the processing

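RCAN1 was lower in exercised animals on its brightest probe set in all 26 alternatives, from -0.57 without sedentary 1 to -0.23 in males on dim arrays. Its second probe set ran from -0.46 without exercised 2 to 0.03 in males on dim arrays, the 1 of 25 alternatives that turned it. Some alternatives could not change these differences. The level filter, the trended robust eBayes, the replicate block and the model without sex left the brightest probe set at -0.47 by design. Quantile normalization also gave -0.47, on columns that already shared a median. As RCAN1 was chosen for this difference, its steady sign is a description. With the replicate block the brightest probe set's difference was -0.53 in females and -0.41 in males, and its interaction -0.13; as the mean of both probe sets the male difference was -0.15. Of 540 tested alternatives for single probe sets 0 passed (lowest adjusted p = 0.0864, for PPP3CB on the bright arrays).

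Signs of small differences, none called, turned as follows. For training, NFATC1 went to 0.0019 with the array set as a block and 0.12 on bright arrays alone (-0.20 on dim ones, -0.17 in their males), and the brightest PPP3CA probe set to -0.078 on bright arrays. On dim arrays alone, PPP3CA Ssc.15878.1.S1_at went to 0.055 (0.17 in their males) and Ssc.6764.1.A1_at to 0.11 (0.16 in their males). PPP3CC went to -0.034 there (0.012 in their males), and the brighter RCAN3 probe set to -0.088 (-0.076 in their males). For sex, RCAN1 went to -0.12 on bright arrays and PPP3CB to 0.033 as the mean of its probe sets. With the replicate block, the sex difference of NFATC1 went to 0.13, of PPP3CB Ssc.19700.1.S1_at to 0.047 and of RCAN3 Ssc.28328.2.A1_at to -0.21. That of PPP3CA Ssc.6764.1.A1_at fell to 0.090 without a turn. Leaving out 1 animal, training ran from -0.045 to 0.030 for NFATC1, from -0.019 to 0.13, -0.051 to 0.048 and -0.073 to 0.038 for the PPP3CA probe sets, and from -0.0074 to 0.057 for the brighter RCAN3 one. Sex ran from -0.052 to 0.020 for NFATC1, -0.045 to 0.0094 for PPP3CB Ssc.19700.1.S1_at, -0.0058 to 0.18 for RCAN1 and -0.0045 to 0.085 for RCAN3 Ssc.28328.2.A1_at.

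Counts over all probe sets that moved by over 1.5 times are given here, with the other counts of the same settings beside them. The causes were not tested. Above the 60th percentile of level 9574 of 23935 probe sets entered, with p-values adjusted among those alone. Of them 77 passed for training (3197 over all), 1 in females (890), 0 in males (902) and 5 for sex (22). With the replicate block these were 3528, 333, 402 and 13; same-numbered animals deviated together at r over 0.1 in 6 of 8 pairs, and 2 exercised animals correlated best with their own number, so the numbers were not taken as pairs. In males 1553 passed with the array set as a block and 124 on bright arrays alone. Leaving out 1 animal gave 2513 to 3108 for training, 462 to 890 in females, 471 to 1010 in males and 20 to 83 for sex. Without sedentary 8 the sex count was 83.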
